A study of Mus musculus with 12 samples.

Results

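Livers of mice lacking Ahnak (KO) were compared with livers of wild-type (WT) mice, all kept on regular chow. The comparison takes, by their titles, the 3 arrays of KO chow mice and the 3 arrays of WT chow mice, 6 of the 12 arrays of the series. The other 6 arrays hold 3 KO and 3 WT mice given a high-fat diet (HFD) with 60% fat, and they serve here only to show where the chow difference was or was not seen again. All 12 mice were male C57BL/6 mice, kept in weight-matched groups on their diet for 8 weeks, with 1 mouse per array. The age of the mice, the design of the Ahnak allele and whether KO and WT mice were littermates are not stated in the labels or protocols. Total liver RNA was labelled with biotin, and each array gave a log2 signal for every probe set. Differences are given as KO minus WT on the log2 scale, where 1 stands for a 2-fold difference, with the standard error (SE) of a linear model fitted with limma to all 12 arrays. A gene is said to have risen, fallen or changed only where its p, adjusted by the Benjamini-Hochberg method over all 22180 genes with a single symbol, was under 0.05. The model pools the spread of all groups, so the p-values measure the spread between mice of one group.

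Ahnak encodes a very large scaffold protein that binds annexin 2 with S100a10 at the cell membrane, as well as subunits of voltage-gated calcium channels. Most liver RNA comes from hepatocytes, and many hepatocyte genes differ between male and female mice. Pulses of growth hormone, acting through the transcription factor STAT5b, maintain the male pattern, while the steadier hormone level of females maintains the female pattern. Cux2 is a female-biased repressor of male-biased genes in this system, and several cytochrome P450, sulfotransferase and flavin-containing monooxygenase genes belong to the female-biased set.

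The labels were checked first. Ahnak itself was read by 1 probe set, at 6.50, 6.83 and 6.58 in WT chow mice and 6.38, 6.74 and 6.66 in KO chow mice, so the groups overlapped (difference -0.04 ± 0.14 (SE), adjusted p = 0.971). Where this probe set lies relative to the disrupted part of the gene is not stated in the labels, so its signal does not check the KO label. Xist, the RNA of the inactive X chromosome, lay between 4.21 and 4.68 on the chow arrays, and the Y-linked genes Uty and Eif2s3y between 8.16 and 8.46, as the male label requires. The 8 hepatocyte markers averaged 13.06 to 13.10 in WT chow mice and 13.12 to 13.15 in KO chow mice. Nnt, a mitochondrial transhydrogenase whose gene is partly deleted in some C57BL/6J stocks, read 9.81, 10.75 and 10.78 in WT and 9.69, 10.48 and 10.46 in KO (difference -0.23 ± 0.30). The 1 lower array in each group was WT chow 1 and KO chow 1, which share a replicate number.

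WT and KO livers on chow were close. Only 2 of 22180 genes changed (0.00902%), Fmo2 and Cux2, and both rose; at an unadjusted p under 0.05 there were 1558 genes (7.02%), 653 higher (2.94%) and 905 lower (4.08%). The 3 KO arrays and the 3 WT arrays did not overlap for 2937 genes (13.2%), 1320 of them higher in KO (5.95%) and 1617 lower (7.29%). The root mean square difference between group means was 0.173 over all genes on chow and 0.329 on HFD, where 2331 genes changed (10.5%). Single KO and WT chow arrays lay 0.253 to 0.303 apart by the same measure, against 0.279 to 0.285 for pairs of WT chow arrays and 0.254 to 0.256 for pairs of KO chow arrays. The median 95% interval was 0.262 wide on each side, and for 98.5% of genes the whole interval lay inside 2-fold in either direction, for 86.8% inside 1.5-fold. With 3 mice per group, smaller differences than that were not resolved for most genes.

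**Figure D1:**
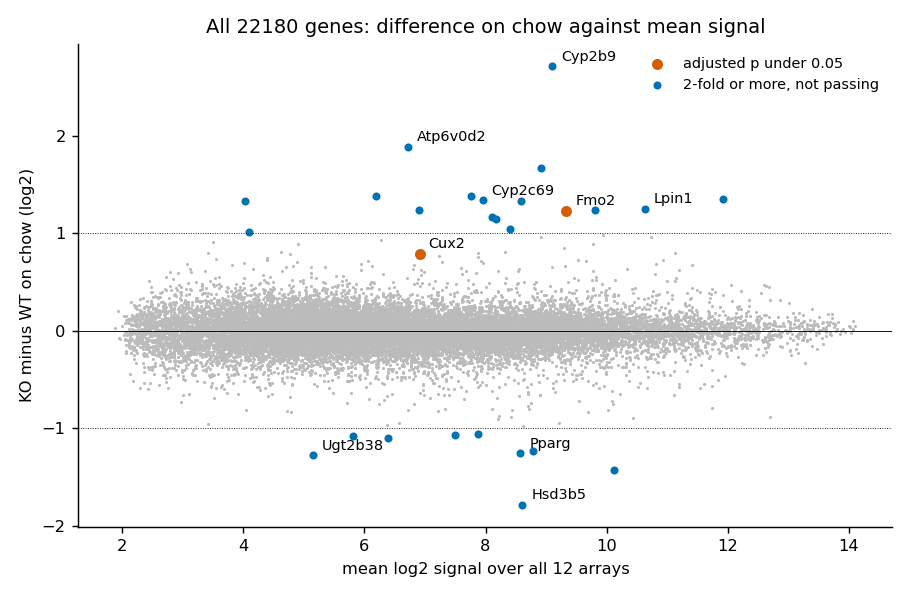
Difference between KO and WT livers on chow (log2) against mean log2 signal over all 12 arrays, 1 point per gene for 22180 genes. The 2 genes that passed the threshold, Fmo2 and Cux2, are in orange; blue points show the genes with a measured difference of 2-fold or more that did not pass, and the remaining genes lie between the dotted lines at 1 and -1.

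Fmo2, a flavin-containing monooxygenase that oxidises nitrogen- and sulfur-containing compounds, was the larger of the changes. Its signals were 9.02, 9.0 and 8.90 in WT and 9.79, 10.58 and 10.25 in KO. Every KO array was above every WT array, and the rise was 1.23 ± 0.15 (SE), or 2.35-fold with a 95% interval of 1.87 to 2.94 (adjusted p = 0.0307). The pooled spread behind this interval includes the WT chow and HFD mice, whose Fmo2 signals lay closer together than those of KO chow mice. The interval may thus be too narrow. Cux2 read 6.75, 6.69 and 6.78 in WT and 7.40, 7.62 and 7.56 in KO. Its arrays did not overlap either, and its rise was 0.79 ± 0.09, or 1.73-fold with an interval of 1.51 to 1.98 (adjusted p = 0.0254). In bulk liver, more cells expressing a gene and more RNA per cell cannot be told apart.

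Neither rise was seen in the mice fed HFD. Fmo2 read 9.18, 9.21 and 9.29 in WT HFD and 8.94, 8.90 and 8.90 in KO HFD mice, a difference of -0.32 (adjusted p = 0.228), and its difference on HFD was 1.55 below that on chow (interaction adjusted p = 0.00214). Cux2 read 6.55, 6.62 and 6.72 in WT HFD and 6.81, 6.80 and 6.65 in KO HFD mice, and its interaction was -0.67 (adjusted p = 0.0139). For genes picked by their p on chow, here and below, the interaction uses the same chow arrays and is not independent of that choice.

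Both calls on chow depended on how the spread was estimated. The sizes ran from 1.04 to 1.44 for Fmo2 and from 0.74 to 0.85 for Cux2 over all settings tried. Both ends of each range came from leaving out a chow array. Settings that alter only the estimate of the spread, such as leaving out an HFD array, cannot move a size. Fitted on the 6 chow arrays alone, the adjusted p became 0.420 for Fmo2 and 0.400 for Cux2. When single arrays were left out, Fmo2 stayed under 0.05 only without KO chow 1 (6.67e-04) or KO HFD 3 (0.0443). The other 10 leave-outs gave 0.0728 and 0.112 without KO chow 2 and 3, 0.0558, 0.0772 and 0.207 without WT chow 1, 2 and 3, 0.0643 and 0.0861 without KO HFD 1 and 2, and 0.0801, 0.0550 and 0.0752 without WT HFD 1, 2 and 3. For Cux2 the call was lost without KO chow 2 (0.125) or 3 (0.112), WT chow 2 (0.0772) or 3 (0.148), KO HFD 1 (0.0554) or 2 (0.0661), and WT HFD 1 (0.0521) or 2 (0.0550), and was kept without the other 4 arrays.

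The windows around the starts of Fmo2, Cux2 and Cyp2c69, the female-biased gene that came next by p, show what lies upstream of the genes that led the comparison. Each holds 250 bases before and 50 after a RefSeq start on GRCm38.p6, read 5′ to 3′ on the gene's strand, which is the minus strand for all 3. Capitals mark matches to TTCNNNGAA, the STAT5 motif, which reads the same on both strands, or to ATTGAT, the core of the HNF6 motif (ATCAAT on the other strand); no STAT5 match overlaps an HNF6 match in these 3 windows. The windows are chr1:162898444-162898743 for the second listed start of Fmo2, chr5:122049802-122050101 for the first listed start of Cux2 and chr19:39886720-39887019 for Cyp2c69.
Fmo2: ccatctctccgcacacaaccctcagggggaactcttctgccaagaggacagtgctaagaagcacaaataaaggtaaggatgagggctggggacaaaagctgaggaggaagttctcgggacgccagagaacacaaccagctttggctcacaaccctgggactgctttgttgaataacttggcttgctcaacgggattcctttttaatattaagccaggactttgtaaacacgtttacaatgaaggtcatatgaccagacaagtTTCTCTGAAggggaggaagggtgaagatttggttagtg
Cux2: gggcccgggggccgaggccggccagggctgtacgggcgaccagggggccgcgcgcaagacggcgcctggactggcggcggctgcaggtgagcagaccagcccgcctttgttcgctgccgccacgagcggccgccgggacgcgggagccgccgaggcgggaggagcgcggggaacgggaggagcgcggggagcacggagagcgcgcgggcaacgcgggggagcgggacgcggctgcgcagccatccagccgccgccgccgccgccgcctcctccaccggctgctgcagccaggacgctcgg
Cyp2c69: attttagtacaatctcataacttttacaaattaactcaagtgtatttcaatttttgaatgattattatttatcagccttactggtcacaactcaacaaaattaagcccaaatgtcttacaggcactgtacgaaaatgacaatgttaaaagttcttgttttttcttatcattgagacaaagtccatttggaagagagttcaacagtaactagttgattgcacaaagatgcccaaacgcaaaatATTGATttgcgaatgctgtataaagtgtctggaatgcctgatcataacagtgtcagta

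Where a gene has several listed starts, the first window with a match is shown, and otherwise the first listed. The shown Fmo2 window holds TTCTCTGAA starting 13 bases into the transcript, while the window of the first listed start of Fmo2 holds neither motif, the Cyp2c69 window holds ATTGAT from 8 bases before its start, and both listed Cux2 windows hold neither. Over all 32851 windows of this length, 8.3% hold the STAT5 motif and 7.54% the HNF6 core. Counted by gene, these are 9.55% and 8.63% of 27025 genes. Of the 17 female-biased genes with a window, 4 (23.5%) had the STAT5 motif and 7 (41.2%) the HNF6 core, and of 18 male-biased genes 2 (11.1%) and 3 (16.7%) did. Neighbouring Cyp2c, Cyp3a and Mup genes share much of their upstream sequence, so these genes are not independent, and a match is only a run of letters.

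When all 41345 probe sets were fitted, 3 changed on chow, and the strongest of them have no gene symbol here. Probe set 17549150 read 6.09, 6.00 and 6.00 in WT and 8.05, 8.28 and 8.12 in KO chow mice, a rise of 2.12 (adjusted p = 4.33e-05). Probe set 17549062 read 6.18, 6.05 and 6.06 in WT and 7.75, 8.26 and 8.14 in KO, a rise of 1.95 (adjusted p = 5.28e-04). These were singled out after their values were seen, and the third was Cux2. Unlike Fmo2 and Cux2, both also rose on HFD, by 2.00 (adjusted p = 9.17e-06) and 1.96 (adjusted p = 4.35e-05), with interactions of -0.12 (adjusted p = 0.806) and 0.002 (adjusted p = 0.998), and all 6 KO arrays of the series lay above all 6 WT arrays for each. With the 6 chow arrays alone, probe set 17549150 kept its call (adjusted p = 0.0104) and probe set 17549062 did not (0.115). Among genes with a symbol, 71 had all 6 KO arrays above all 6 WT arrays and 185 had them below, and the gap between genotypes was at most 0.332.

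**Figure D2:**
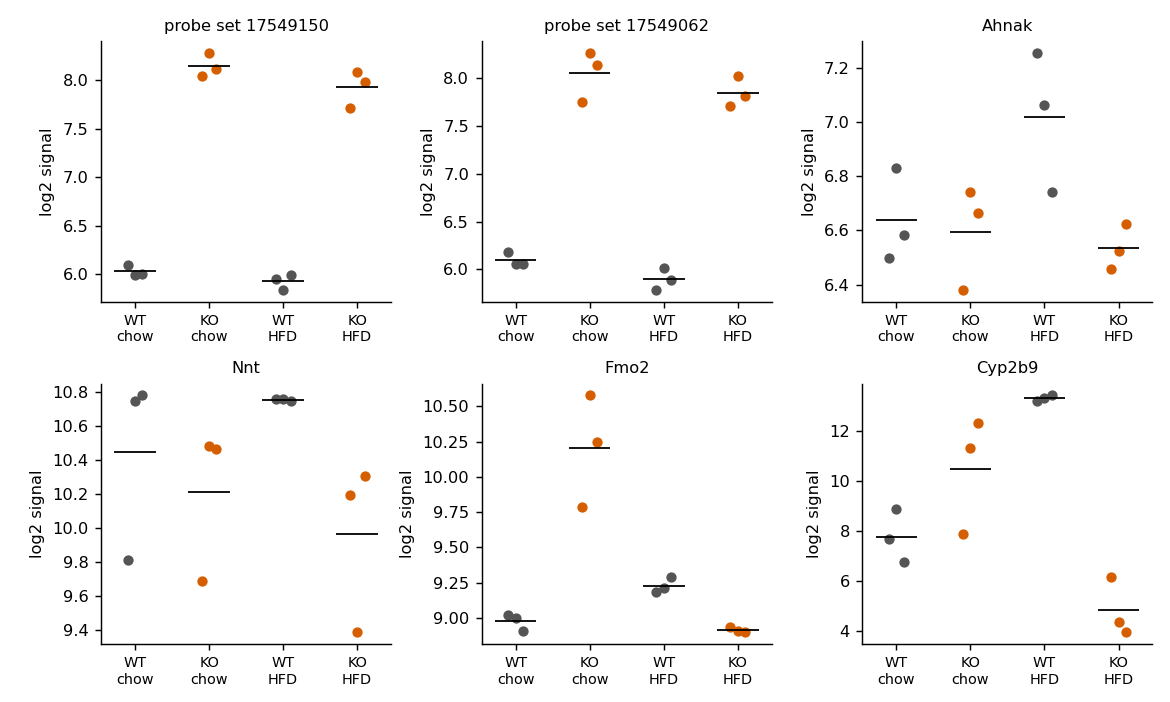
Log2 signal on each of the 12 arrays (points) with the group mean (bars) for the unnamed probe sets 17549150 and 17549062, Ahnak, Nnt, Fmo2 and Cyp2b9. The unnamed probe sets separate KO (orange) from WT (grey) on both diets, Fmo2 is high only in the KO chow group, Ahnak and Nnt overlap between genotypes on chow, and Cyp2b9 spans 6.75 to 12.29 among chow mice.

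Beyond Fmo2 and Cux2, the genes with the smallest p whose chow arrays did not overlap give the leading differences, 12 higher and 12 lower in KO with the called genes included. The others did not pass: their adjusted p lay between 0.0540 and 0.269. Since they were taken by p, their values are a description.

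Among the leading higher genes after Fmo2 and Cux2, Cyp2c69, a female-biased cytochrome P450, read 7.20, 8.08 and 7.60 in WT and 9.08, 9.07 and 8.73 in KO (1.34 ± 0.19, adjusted p = 0.0855). Sult1b1, a sulfotransferase of thyroid hormones and phenols, read 8.11, 7.97 and 8.11 in WT and 8.65, 8.76 and 8.68 in KO (0.63 ± 0.10, adjusted p = 0.0873). Asl, which cleaves argininosuccinate in the urea cycle, read 12.81, 12.54 and 12.53 in WT and 13.10, 13.14 and 13.05 in KO (0.47 ± 0.10, adjusted p = 0.269). All 3 KO mice stood above all 3 WT mice for each, by rule. The remaining higher genes were the glutathione peroxidase pseudogene Gpx2-ps1 (0.71), Jdp2 (0.71), which dimerises with Jun proteins, Retreg1 (0.63), a receptor for autophagy of the endoplasmic reticulum, Aprt (0.52), which salvages adenine, Naip2 (0.50), an inflammasome sensor of bacterial proteins, Tmtc2 (0.49), an O-mannosyltransferase, and Dipk1b (0.47). Probes for Gpx2-ps1 and Cyp2c69 can share sequence with their close relatives, so these signals may not belong to 1 gene.

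Of the leading lower genes, Nt5dc2, a 5′-nucleotidase domain protein, came nearest to the threshold, at 10.38, 10.41 and 10.45 in WT and 9.84, 9.88 and 9.83 in KO (-0.57 ± 0.08, adjusted p = 0.0540). Spon2, a secreted matrix protein of innate immunity, read 9.09, 8.71 and 8.74 in WT and 8.19, 7.80 and 7.88 in KO (-0.89 ± 0.13, adjusted p = 0.0855). Acaa1b, a peroxisomal thiolase of fatty acid oxidation, read 11.79, 12.01 and 11.93 in WT and 11.37 in each of the first 2 KO mice and 11.36 in the last (-0.54 ± 0.09, adjusted p = 0.0903). The widest difference of the 12 was that of Cspg5, a male-biased proteoglycan gene, at 7.12, 6.88 and 7.67 in WT and 6.35, 6.07 and 5.96 in KO (-1.10 ± 0.19, adjusted p = 0.120). The others were Mrnip (-0.91), a DNA repair factor, the kinetochore protein Spc25 (-0.76), the calcium-independent phospholipase Pla2g6 (-0.63), the Arf regulator Asap3 (-0.57), the clamp loader subunit Rfc3 (-0.54), the ISG15-conjugating enzyme Ube2l6 (-0.50), the actin-binding neurabin Ppp1r9a (-0.49) and the membrane protein Xk (-0.49).

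On HFD, in other mice, the leading genes did not keep 1 direction. Of the 12 higher on chow, 7 lay above 0 on HFD and 5 below; 3 of them rose there (3.89% of all genes did) and 2 fell (6.62% of all genes did). Aprt (1.07), Tmtc2 (0.76) and Asl (0.62) were the ones that rose, and Sult1b1 (-0.76) and Naip2 (-0.43) fell. Of the 12 lower on chow, 7 lay above 0 on HFD and 5 below: Spon2 (0.84), Ppp1r9a (0.83), Cspg5 (0.73) and Nt5dc2 (0.50) rose, and Spc25 (-0.53) and Xk (-0.35) fell. The interaction passed for 13 of these 24 genes and for 3.53% of all genes (1.43% upward, 2.1% downward), a count that shares the chow arrays with the choice of the 24.

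**Figure D3:**
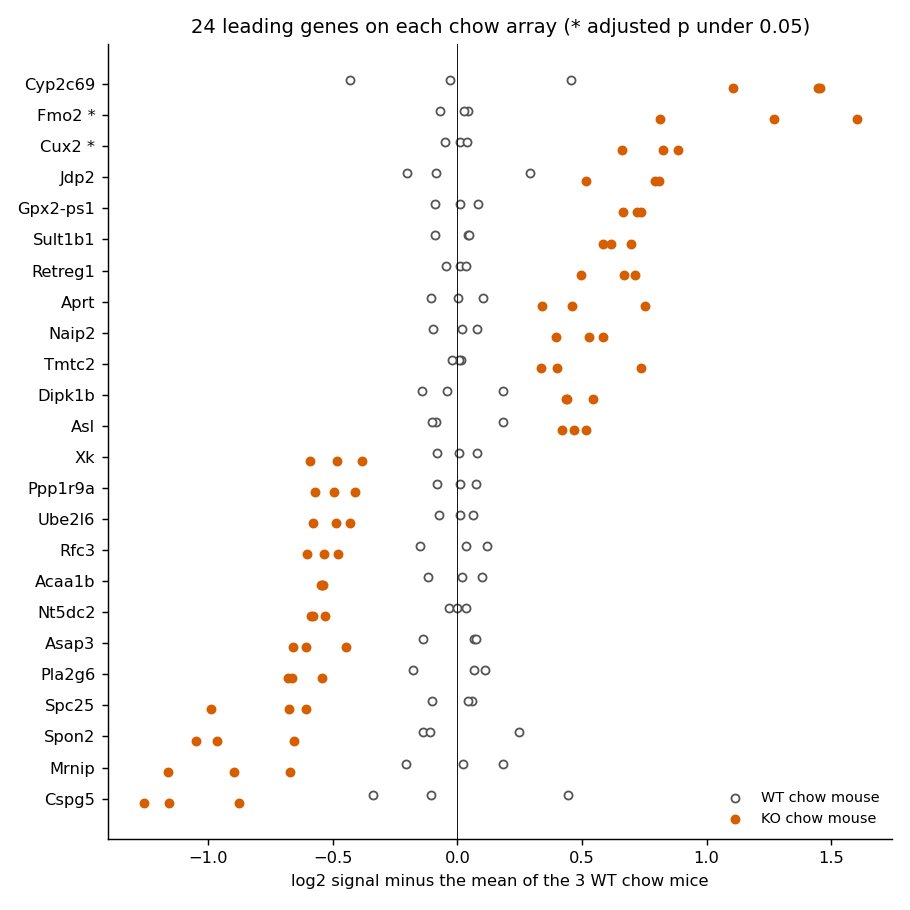
Log2 signal of each chow mouse minus the mean of the 3 WT chow mice for the 24 leading genes, WT as open and KO as filled points. The groups do not overlap for any gene shown, which the rule that chose them requires; only Fmo2 and Cux2, marked with an asterisk, passed the threshold.

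Female-biased liver genes lay higher in KO livers on chow as a list. Of 22 measured, 16 lay above 0 and 6 below, with a median of 0.381, against -0.003 for all genes. Both changed genes, Fmo2 and Cux2, are members, 9 were higher at an unadjusted p under 0.05 (2.94% of all genes were) and 0 lower (4.08%), and 7 had arrays that did not overlap, all higher in KO (5.95% of all genes). The median ran from 0.250 to 0.538 when single arrays were left out. This list was drawn up with earlier results of these livers known, and 8 of its members are also in the list of Cyp2 and Cyp3 genes below.

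The widest member, and the highest difference of all 22180 genes, was Cyp2b9, a female-predominant cytochrome P450. It read 7.69, 8.88 and 6.75 in WT and 7.88, 11.31 and 12.29 in KO (2.72 ± 0.94, adjusted p = 0.583), so 2 KO mice stood far above every WT mouse and KO chow 1 lay among them. Atp6v0d2, a subunit of the vacuolar proton pump, read 6.55, 5.08 and 5.45 in WT and 7.76, 7.70 and 7.28 in KO (1.89 ± 0.50, adjusted p = 0.408). Trim24, a transcriptional cofactor, read 9.25, 9.61 and 9.79 in WT and 10.12, 10.15 and 10.21 in KO (0.61 ± 0.13, adjusted p = 0.269). For Atp6v0d2 and Trim24 the KO mice were tightly grouped above a wider WT group. Tox, a nuclear HMG-box protein (0.44 ± 0.12, adjusted p = 0.442), and Sult3a1, a sulfotransferase at 2.19 to 2.56 in WT and 2.66 to 3.38 in KO (0.55 ± 0.18, adjusted p = 0.558), also did not overlap, although Sult3a1 lay near the bottom of the array's range. Not all members took part: Cyp2a4, a steroid 15-alpha-hydroxylase, differed by -0.18 ± 0.15, and Cyp2b13 read 4.50 to 4.70 in WT and 4.56 to 5.46 in KO.

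Male-biased liver genes lay lower as a list. Of 25 measured, 19 lay below 0 and 6 above, with a median of -0.234. None changed, 10 were lower at an unadjusted p under 0.05 (4.08% of all genes) and 0 higher (2.94%), and 9 had arrays that did not overlap, all lower in KO (7.29% of all genes). The median ran from -0.433 to -0.162 when single arrays were left out. Like the female-biased list, this one was drawn up with earlier results of these livers known.

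Hsd3b5, a hydroxysteroid dehydrogenase of male liver, had the lowest difference of all 22180 genes. It read 8.20, 10.10 and 10.22 in WT and 7.80, 8.20 and 7.16 in KO (-1.79 ± 0.51, adjusted p = 0.464), and WT chow 1 sat only just above KO chow 2. Ugt2b38, a glucuronosyltransferase, read 5.60, 6.03 and 6.25 in WT and 4.98, 5.04 and 4.02 in KO (-1.28 ± 0.28, adjusted p = 0.269). Cyp7b1, the oxysterol 7-alpha-hydroxylase, read 12.17, 12.50 and 12.38 in WT and 12.04, 11.82 and 10.81 in KO (-0.79 ± 0.24, adjusted p = 0.522). For these and for Cyp2b9, KO chow 3 was the array farthest from the WT mice. Cyp2u1, a fatty acid hydroxylase (-0.72 ± 0.15, adjusted p = 0.269), Slco1a1, an organic anion uptake transporter (-0.66 ± 0.19, adjusted p = 0.457), Cyp4a12b, a fatty acid omega-hydroxylase (-0.45 ± 0.18, adjusted p = 0.642), and C6, a complement component (-0.36 ± 0.09, adjusted p = 0.408), did not overlap between genotypes either. Elovl3, a fatty acid elongase, read 12.41, 13.27 and 13.33 in WT and 12.46, 12.20 and 11.68 in KO, with WT chow 1 inside the KO range (-0.89 ± 0.24, adjusted p = 0.431). Bcl6, a male-biased repressor, had the opposite sign, at 7.19, 8.26 and 7.24 in WT and 7.87, 9.74 and 8.52 in KO (1.15 ± 0.59, adjusted p = 0.744).

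By their medians, the HFD mice showed these lists the other way round, although not every member reversed. On HFD the female-biased list had a median of -0.555, with 10 members that fell and 0 that rose, and the male-biased list had a median of 1.10, with 17 that rose and 1 that fell, where 3.89% of all genes rose and 6.62% fell. Cyp2b9 differed by -8.44 and Atp6v0d2 by -2.11 on HFD, and the interaction was -11.16 (adjusted p = 8.37e-04) and -4.0 (adjusted p = 0.0105). Among male-biased genes, the interaction was 4.23 for Hsd3b5 (adjusted p = 0.00849), 3.98 for Ugt2b38 (adjusted p = 2.51e-04) and 3.45 for Cyp7b1 (adjusted p = 2.51e-04). For all 5 genes the genotype difference on HFD thus lay on the other side of 0 from that on chow, and the difference between diets passed the test. Of the 9 female-biased genes higher on chow at an unadjusted p under 0.05, Cyp2b9, Atp6v0d2, Fmo2 and Sult3a1 lay below 0 on HFD. The others stayed above 0: Cyp2c69 (0.56), Cyp2c40 (0.50), Trim24 (0.31), Cux2 (0.12) and Tox (0.03). Cyp2a4, Abcd2 and Hao2 lay below 0 on chow already and differed by -3.22, -2.15 and -1.57 on HFD. Among male-biased genes, Cyp2u1 and Bcl6 had the same sign on both diets.

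**Figure D4:**
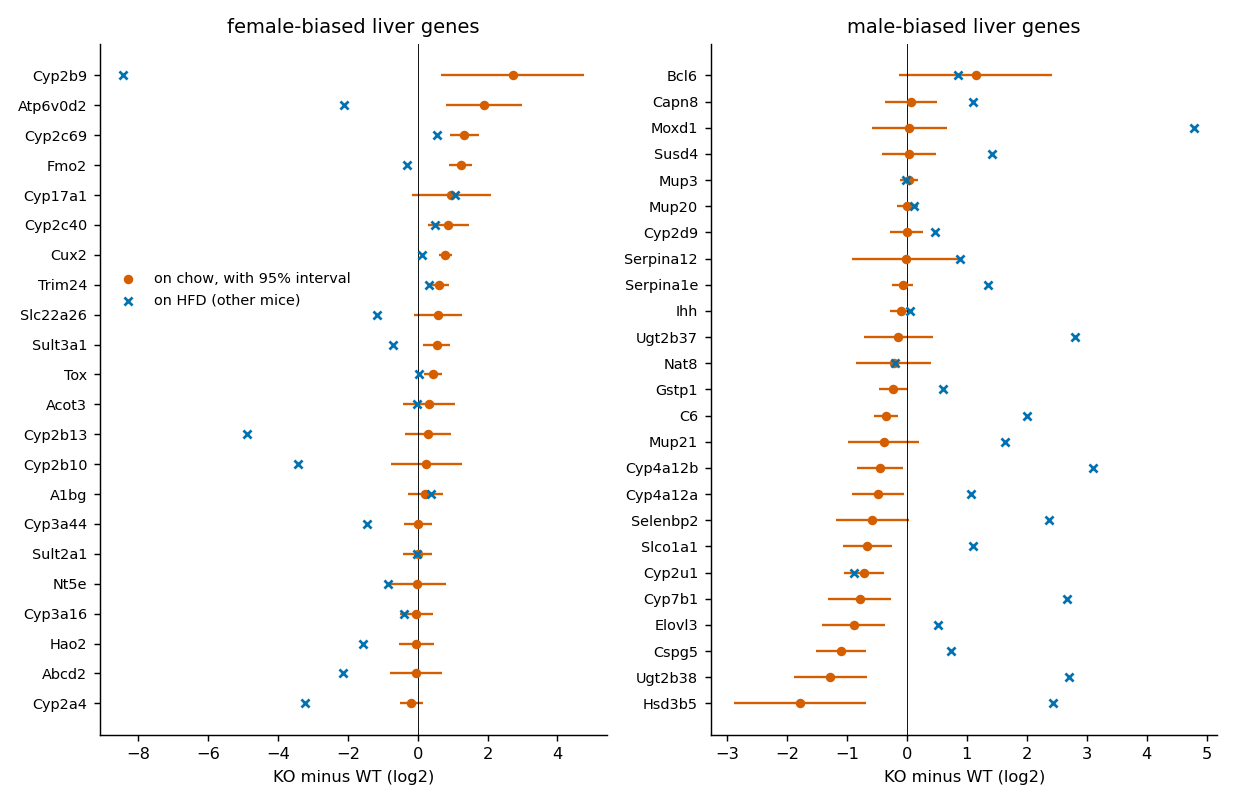
Difference between KO and WT (log2) for the measured female-biased (22) and male-biased (25) liver genes, on chow with its 95% interval (orange) and on HFD in other mice (blue crosses). On chow most female-biased genes lie right of 0 and most male-biased genes left of it, with medians of 0.381 and -0.234, and on HFD the medians are -0.555 and 1.10.

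Genes of growth hormone signalling did not show a shift of the same kind. Of 19 measured members, 0 had an unadjusted p under 0.05 (7.02% of all genes), the median was 0.009, and the arrays of 1 did not overlap. Igf1, the main endocrine product of hepatic growth hormone signalling, read 12.01, 11.89 and 12.08 in WT and 12.07, 11.99 and 12.15 in KO, so that the 95% interval of its difference was -0.11 to 0.26. The interval was -0.40 to 0.13 for Stat5b, the transcription factor, and -0.05 to 0.91 for Socs2, a feedback inhibitor induced by STAT5. A 1.5-fold change was outside the intervals of Igf1 and Stat5b and inside that of Socs2.

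Among xenobiotic enzymes, Cyp2c genes and sulfotransferases held most of the higher members. The list of Cyp2 and Cyp3 genes, which also holds Cyp1a genes, had 32 measured members and a median of 0.031. Of these members, 8 were higher and 0 lower at an unadjusted p under 0.05 (2.94% and 4.08% of all genes). The arrays of 7 did not overlap with KO above and those of 2 with KO below (5.95% and 7.29% of all genes). Of the higher members, 6 were Cyp2c genes, which encode hydroxylases of drugs and fatty acids. Cyp2c37 read 9.76, 12.20 and 11.55 in WT and 12.51, 12.77 and 12.29 in KO (1.35 ± 0.45, adjusted p = 0.561). Cyp2c50 read 10.29, 11.63 and 11.36 in WT and 11.77, 11.75 and 11.78 in KO (0.67 ± 0.27, adjusted p = 0.656). In both, and in Hsd3b5 and Elovl3 above, WT chow 1 was the lowest WT array. Cyp2c68 (0.54 ± 0.16), Cyp2c54 (0.40 ± 0.15) and Cyp2c40 (0.88 ± 0.27) were the other members of this subfamily under that p, with adjusted p of 0.508, 0.604 and 0.510, and the arrays of Cyp2c40 overlapped. These genes are near-identical in places, and a probe set for 1 can bind RNA of another.

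Fmo2 was the one flavin-containing monooxygenase of 6 measured that changed. Fmo1, a related monooxygenase, lay at 10.99 to 11.10 in WT and 11.14 to 11.21 in KO (0.13 ± 0.09, adjusted p = 0.816). Among 19 glucuronosyltransferases and sulfotransferases the median was -0.024, with 4 higher and 1 lower at an unadjusted p under 0.05 (2.94% and 4.08% of all genes). All 4 higher members were sulfotransferases: Sult1b1, Sult3a1, Sult1d1 (0.51 ± 0.11, adjusted p = 0.269), which acts on catecholamines, and Sult1a1 (0.37 ± 0.15, adjusted p = 0.649), which acts on phenols. Ugt2b38 was the lower one. Of 19 NRF2 targets and glutathione genes, 15 lay below 0 with a median of -0.075, and 4 did not overlap, all lower (7.29% of all genes). Gclc, the catalytic subunit that makes the first product of glutathione synthesis, read 11.61, 11.90 and 11.94 in WT and 11.20, 11.09 and 11.40 in KO (-0.59 ± 0.11, adjusted p = 0.184), and on HFD it fell by 0.57 (adjusted p = 0.00722). Ephx1, microsomal epoxide hydrolase, read 12.47 to 12.55 in WT and 12.09 to 12.23 in KO (-0.34 ± 0.08, adjusted p = 0.342).

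Lipid genes showed no change on chow that passed the test. Of 26 genes of fatty acid oxidation and ketogenesis, 22 lay below 0, with a median of -0.074; 5 were lower at an unadjusted p under 0.05 and 0 higher (4.08% and 2.94% of all genes), and 10 did not overlap with KO below and 1 with KO above (7.29% and 5.95% of all genes). The differences were small in size, from -0.57 to 0.14, and largest for Acot2 (-0.57 ± 0.19), a mitochondrial acyl-CoA thioesterase, Acaa1b (above) and Vnn1 (-0.47 ± 0.11), a pantetheinase induced by PPAR alpha. Ehhadh (-0.25 ± 0.09) and Hsd17b4 (-0.16 ± 0.07), the multifunctional peroxisomal enzymes, made up the 5. On HFD 13 of the 26 rose and 0 fell (3.89% and 6.62% of all genes), and of the 5 genes just named the interaction passed for Acaa1b (0.78), Acot2 (1.23) and Ehhadh (1.35). Ppara, the receptor that controls many of these genes, read 10.71 to 10.85 in WT and 10.75 to 10.80 in KO, with an interval of -0.19 to 0.19. Cpt1a, which admits fatty acids to mitochondria, did not overlap and was the highest member (0.14 ± 0.08, adjusted p = 0.776).

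For fat synthesis and storage, most intervals lay on both sides of 0. Among 24 genes of fatty acid and triglyceride synthesis the median was 0.032, with 2 higher and 1 lower at an unadjusted p under 0.05 (2.94% and 4.08% of all genes). The interval was -0.39 to 0.23 for Fasn, fatty acid synthase, and -0.94 to 0.54 for Scd1, the stearoyl-CoA desaturase, which read 13.46 to 13.63 in WT and 13.25 to 13.45 in KO. The pooled spread behind the interval of Scd1 includes the KO HFD mice, which read 12.47, 11.81 and 10.52. Lpin1, a phosphatidate phosphatase, read 9.06, 9.99 and 9.65 in WT and 10.49, 10.66 and 11.31 in KO (1.25 ± 0.46, adjusted p = 0.610), Acacb, the mitochondrial acetyl-CoA carboxylase, lay 0.39 ± 0.15 higher (adjusted p = 0.630), and Srebf1, a regulator of lipogenesis, lay 0.31 lower with an interval of -0.59 to -0.04 (adjusted p = 0.655).

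Lipid droplet genes had a median of 0.036 over 20 members, with 2 that did not overlap above and 6 below (5.95% and 7.29% of all genes). Pparg, the adipogenic receptor, read 9.16, 8.71 and 8.74 in WT and 8.39, 6.16 and 8.29 in KO (-1.26 ± 0.49, adjusted p = 0.630), with KO chow 2 far below the others. Its difference on HFD was -1.77 (adjusted p = 0.037), and all 6 KO arrays of the series lay below all 6 WT arrays. Plin5, a droplet coat protein of oxidative tissue, was higher by 0.40 ± 0.14 (adjusted p = 0.583). The intervals were -0.35 to 0.55 for the fatty acid carrier Cd36 and -0.47 to 1.28 for the droplet fusion protein Cidec, so a 2-fold difference lay outside the interval for Cd36 but not for Cidec. Fgf21, a fasting hormone of liver, read 8.68, 8.04 and 8.34 in WT and 8.13, 8.37 and 8.53 in KO, with an interval of -0.66 to 0.64.

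Of 19 genes of glucose output and insulin signalling, 1 was lower at an unadjusted p under 0.05 (4.08% of all genes) and the median was 0.033. Irs2, an insulin receptor substrate, read 9.80, 8.74 and 9.97 in WT and 8.80, 8.13 and 8.64 in KO (-0.98 ± 0.30, adjusted p = 0.522), and its interaction was 2.97 (adjusted p = 0.00298). For the gluconeogenic enzymes Pck1 and G6pc the intervals were -0.19 to 0.13 and -0.31 to 0.13. Among 21 genes of bile acid synthesis and transport the median was -0.001. Cyp7b1 and Slco1a1, given above as male-biased genes, were the members with an unadjusted p under 0.05 (7.02% of all genes). Cyp7a1, the rate-limiting enzyme of bile acid synthesis, had an interval of -0.64 to 0.41, and Akr1d1, the steroid 5-beta-reductase, read 9.62 to 9.82 in WT and 9.998 to 10.38 in KO (0.44 ± 0.24, adjusted p = 0.754).

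Amino acid and urea cycle genes lay mostly above 0. Of 21 measured, 19 did so, with a median of 0.142; 6 were higher and 1 lower at an unadjusted p under 0.05 (2.94% and 4.08% of all genes), and 8 did not overlap above and 1 below (5.95% and 7.29%). Beside Asl, the higher genes at that p were Cth, which makes cysteine from cystathionine (0.46 ± 0.11, adjusted p = 0.312), Arg1, the arginase that releases urea (0.32 ± 0.10, adjusted p = 0.532), Gnmt, a glycine methyltransferase (0.28 ± 0.10, adjusted p = 0.583), Gpt, an alanine aminotransferase (0.26 ± 0.11, adjusted p = 0.658), and Cps1, the first enzyme of the urea cycle (0.17 ± 0.07, adjusted p = 0.672). On HFD, Asl, Cth (0.60), Arg1 (0.36) and Cps1 (0.36) rose, whereas Gnmt differed by -0.12 (adjusted p = 0.525) and Gpt fell by 0.39 (adjusted p = 0.0369), with an interaction of -0.66 for Gpt (adjusted p = 0.0368). Csad, which commits cysteine sulfinate to taurine, was the member on the other side, at 11.43, 11.43 and 11.57 in WT and 10.79, 10.39 and 10.57 in KO (-0.89 ± 0.16, adjusted p = 0.141). Its difference on HFD was 1.27 (adjusted p = 5.22e-04), with an interaction of 2.16 (adjusted p = 4.05e-04). The list's median was 0.146 on HFD, near its value on chow.

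Stress genes of the endoplasmic reticulum and the integrated stress response lay lower on balance. Of 23 measured, 17 lay below 0 with a median of -0.135, and 6 were lower and 0 higher at an unadjusted p under 0.05 (4.08% and 2.94% of all genes). The chaperone-associated genes Sdf2l1 (-0.76 ± 0.27), Creld2 (-0.59 ± 0.16), Hyou1 (-0.37 ± 0.14) and Pdia6 (-0.30 ± 0.13) were among them, with adjusted p of 0.601, 0.431, 0.630 and 0.661. Creld2 read 10.34, 10.86 and 10.88 in WT and 9.99, 10.22 and 10.10 in KO, without overlap. The median of the list ran from -0.200 to -0.036 when single arrays were left out. On HFD 13 members fell (6.62% of all genes did), with a median of -0.606.

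In the acute phase list, 2 of 22 members were higher and 0 lower at an unadjusted p under 0.05 (2.94% and 4.08% of all genes). The list had a median of 0.074, with 19 members above 0 and 3 below. Its widest members were Orm3, an orosomucoid at 4.48, 5.62 and 6.18 in WT and 6.96, 6.91 and 6.11 in KO (1.24 ± 0.37, adjusted p = 0.508), and Orm2 (0.98 ± 0.37, adjusted p = 0.621). Both overlapped between genotypes. Clock genes and outputs had a median of -0.111 over 18 members, 5 above 0 and 13 below. At an unadjusted p under 0.05, 1 was higher and 2 were lower (2.94% and 4.08% of all genes). The higher was Ciart, a repressor of the clock, at 0.80 ± 0.32 (adjusted p = 0.645). Dbp, a clock output factor, was among the lower at -0.59 ± 0.26 (adjusted p = 0.692), and the lowest member differed by -0.63. The hour at which livers were taken is not stated in the labels.

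Inflammatory and fibrotic genes were close on chow. The medians were -0.025 over 21 interferon response genes, -0.047 over 24 cytokines and chemokines and 0.066 over 25 genes of fibrosis and TGF beta targets. Cxcl10, an interferon-induced chemokine, read 7.47, 7.20 and 7.38 in WT and 6.53, 6.68 and 6.90 in KO (-0.65 ± 0.21, adjusted p = 0.561). Its difference on HFD was -1.80 (adjusted p = 3.14e-04), and all 6 KO arrays of the series lay below all 6 WT arrays. The interval was -0.31 to 0.14 for Tnf and -0.73 to 0.18 for the monocyte chemokine Ccl2. Of the 15 genes in the list of Ahnak and its partners, 1 had an unadjusted p under 0.05, near the 7.02% of all genes that did. It was Smad3, the TGF beta effector reported to bind Ahnak, at 7.97, 8.17 and 8.02 in WT and 7.53, 7.44 and 7.71 in KO (-0.50 ± 0.13, adjusted p = 0.427). Its difference on HFD was 0.32, and the interaction was 0.82 (adjusted p = 0.0365).

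Markers of other liver cells moved little. Of 10 stellate cell markers, 5 did not overlap, all higher in KO (5.95% of all genes), with a median of 0.168, and their array means were 8.37 to 8.57 in WT and 8.52 to 8.71 in KO. Col1a1, a collagen chain in both that list and the fibrosis list, read 7.16, 7.25 and 6.89 in WT and 7.41, 7.42 and 7.41 in KO (0.32 ± 0.13, adjusted p = 0.672). The markers of Kupffer cells (10), recruited macrophages (6) and sinusoidal endothelium (7) had medians of 0.072, 0.047 and 0.047. None of these markers had an unadjusted p under 0.05, where 7.02% of all genes did. Of 4 adipocyte markers 2 were lower at that p, and of 7 T and NK cell markers 1 was lower, where 4.08% of all genes were. Array means of the adipocyte markers were 5.19 to 5.44 in WT and 5.19 to 5.30 in KO. Those of the T and NK cell markers were 5.45 to 5.57 in WT and 5.35 to 5.53 in KO. The part of stellate cells in the fibrosis values was not tested.

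**Figure D5:**
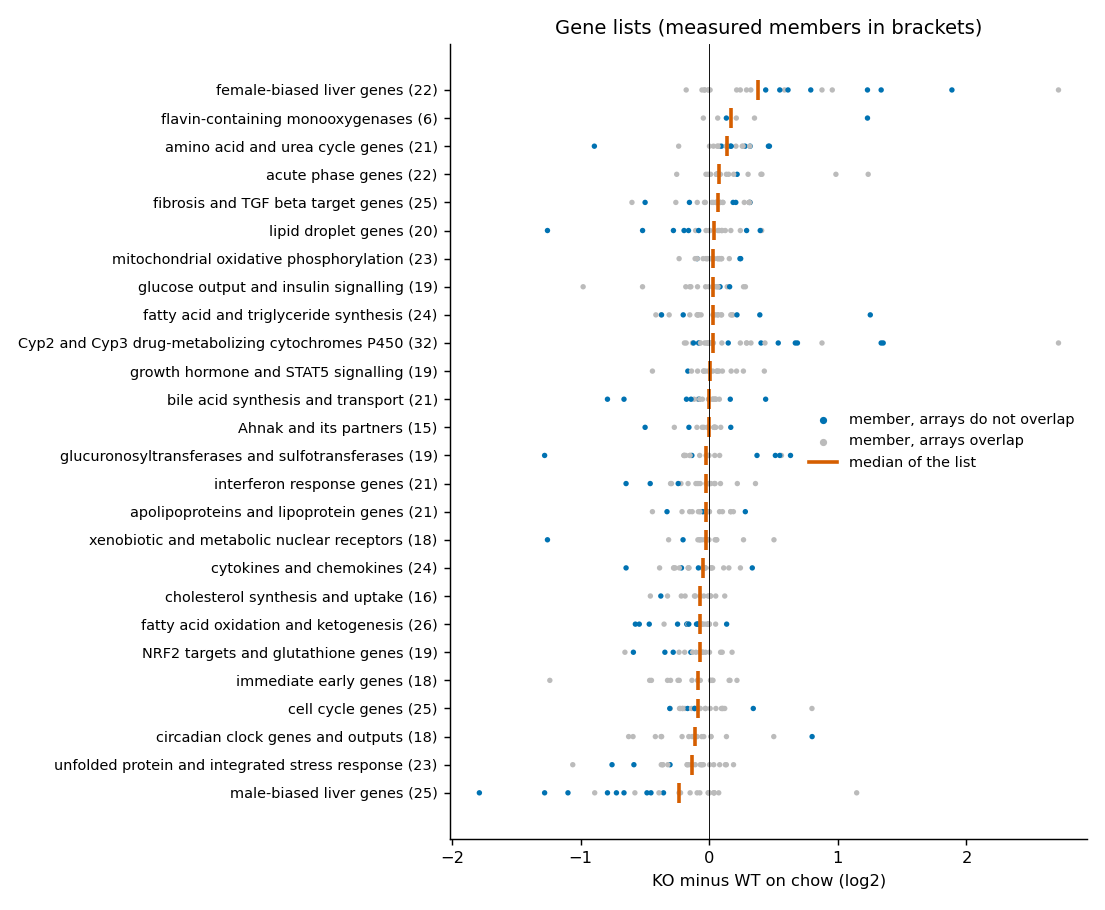
Difference between KO and WT on chow (log2) of every measured member of 26 gene lists, sorted by the list's median (orange bar); members whose KO and WT arrays do not overlap are blue, the others grey. Female-biased genes (median 0.381) and male-biased genes (median -0.234) lie at the ends, and the other medians lie between -0.135 and 0.172.

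In all, 26 genes had a measured difference of 2-fold or more on chow, 17 higher and 9 lower, against 312 on HFD. The arrays did not overlap for 16 of the 26, and Fmo2 was the one that passed the test.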

How the data were processed

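The deposited table holds log2 signals of 41345 probe sets on 12 arrays, 1.40 to 14.36 with 0 missing, made by the authors with oligo per the submitters' processing notes; its version and settings were not given in the sources used here. Values entered the fit as deposited. Symbols came from the array annotation, updated by gene number with RefSeq names for GRCm38.p6: 23521 probe sets had 1 symbol, 1814 several and 16010 none here. The probe set with the highest mean stood for each of 22180 genes, with no filter on dim genes.

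Group means of the 4 groups were fitted with limma 3.58.1 in R 4.3.3 (lmFit, eBayes), with 8 residual and 4.07 prior degrees of freedom and Benjamini-Hochberg adjustment over all genes in each comparison. The code was tested on simulated data. Genes named were those called, the 12 higher and 12 lower with the smallest p and no overlap (gene models left out), list members and a fixed set of liver genes. The comparison, its gene lists and the named genes were chosen with earlier results of these data known. The number of arrays limits the precision. The alternatives tried were array weights, trend and robust eBayes, quantile normalization, median centring, the mean of a gene's probe sets, genes above the median signal, every probe set, the 6 chow arrays alone, a replicate block, and leaving out each of 12 arrays. Promoter windows came from RefSeq, GRCm38.p6. Probe sets with several symbols were left unnamed.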

Additional observations from a re-analysis of the deposited data

Results flagged for a closer look

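Of the 98 genes named, 44 had a difference between KO and WT that differed between chow and HFD (limma interaction, adjusted p under 0.05), where 3.53% of all genes did, and 39 of these had opposite signs on the 2 diets. Part of the 98 were chosen by their p on chow, which uses arrays that also enter the interaction. The gene lists and the other named genes were chosen with earlier results of these data known. Opposite signs were not counted over all genes. Some of the 39 lay near 0 on chow, such as Fgf21 (-0.01) and Cd36 (0.10), so their sign there is not firm. The counts of 44 and 39 are thus only a description of the genes named. The values are the difference on HFD minus that on chow, in log2.

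Among female-biased and xenobiotic genes the interaction was -11.16 for Cyp2b9, -5.18 for Cyp2b13, -4.0 for Atp6v0d2, -3.04 for Cyp2a4, -1.55 for Fmo2, -1.39 for Sult1b1, -1.38 for Sult1d1, -1.27 for Sult3a1, -1.03 for Gpx2-ps1, -0.67 for Cux2 and -0.52 for Fmo1. Among male-biased genes it was 4.23 for Hsd3b5, 3.98 for Ugt2b38, 3.56 for Cyp4a12b, 3.45 for Cyp7b1, 2.36 for C6, 1.82 for Cspg5, 1.77 for Slco1a1 and 1.41 for Elovl3, and it was 1.82 for Socs2 of the growth hormone list. For lipid, glucose, bile acid and taurine genes it was 2.97 for Irs2, 2.16 for Csad, 1.96 for Fgf21, 1.35 for Ehhadh, 1.23 for Acot2, 0.78 for Acaa1b, -2.31 for Akr1d1, -2.34 for Cd36 and -3.68 for Lpin1. For acute phase, stress and clock genes it was -4.72 for Orm3, -2.92 for Orm2, -3.69 for Ciart, -1.30 for Creld2 and -0.99 for Hyou1. Of the remaining genes, Spon2 had 1.73, Ppp1r9a 1.32, Nt5dc2 1.07, Mrnip 0.95, Smad3 0.82, Asap3 0.60, Naip2 -0.93, Gpt -0.66, Jdp2 -1.12 and Col1a1 -1.42.

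Probe sets 17549150 and 17549062, which lie outside the genes compared because they have no symbol here, were higher in KO chow than in WT chow mice by 2.12 and 1.95.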

How the results depend on the processing

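The number of changed genes on chow, 2, was 19 among genes above the median signal (4 higher, 15 lower) and 18 with trend and robust settings (5 higher, 13 lower), and 0 with the 6 chow arrays alone. It ran from 0 to 5 when single arrays were left out, with 5 without WT chow 1, 4 without KO HFD 3, 1 without WT HFD 3, and 0 without WT chow 3, KO chow 2 or 3, WT HFD 1 or 2, or KO HFD 1 or 2. The labels do not say whether a replicate number marks a shared litter, batch or day. Same-numbered deviations on chow correlated at 0.08, -0.025 and -0.017, against -0.071 to 0.089 for unlike numbers. So few pairs cannot settle whether the numbers pair the samples. With a replicate block 0 genes changed on chow, and 1550 had an unadjusted p under 0.05. With the 6 chow arrays alone 1497 did. The count of interactions, 783, was 1394 above the median signal and 1201 with trend and robust settings, and ran from 432 to 718 without single arrays, being 432 and 434 without KO chow 2 and 3, 443 and 481 without WT HFD 2 and 3, 444 without WT chow 3 and 489 without KO HFD 2. The median of the female-biased list was 0.61 among genes above the median signal. Of the 24 leading genes, 17 were called in at least 1 setting. The 24 were chosen by their p on the same chow arrays, and no like count was made over all genes. The 17 are thus only a description.

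Of 98 named genes, 9 changed sign in a setting. Without single arrays Ahnak ran from -0.12 to 0.065, Cd36 from -0.093 to 0.39, Cyp7a1 from -0.31 to 0.13, Fasn from -0.18 to 0.028, Fgf21 from -0.17 to 0.15, Nnt from -0.55 to 0.027, Pck1 from -0.059 to 0.028, Ppara from -0.033 to 0.038 and Xist from -0.19 to 0.048. Fgf21 was 0.0043 with array weights, 0.0003 with median centring and 0.0067 with quantile normalization, and Ppara was 0.0088 and 0.013 with the last 2. The cause of these shifts was not tested.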
